A study of Mus musculus with 18 samples.

Results

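A set of 10 genes that macrophages are known to induce or use in the alternative activation state driven by IL-4 was followed in macrophages of PPARg T166A and WT mice: Retnla, Chil3, Ear2, Il4ra, Irf4, Pdcd1lg2, Clec7a, Stab1, Tgm2 and F13a1. They were chosen by name, with earlier results of these data known. They are 10 of the 26149 genes listed in the skin table and of the 26165 listed in the bone marrow table. Each was represented by its most abundant RefSeq transcript. PPARg is a lipid-sensing nuclear receptor, and in T166A mice an alanine takes the place of a threonine in it. The labels do not say whether the mice carried the change on one or both alleles, nor what age they were.

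IL-4 and the related cytokine IL-13 act on macrophages through receptors that contain the IL-4 receptor alpha chain. JAK kinases bound to the receptor phosphorylate STAT6, which enters the nucleus and switches on a programme of secreted proteins, surface receptors and enzymes linked to parasite defence and tissue repair. PPARg is known as a partner of STAT6 and as a gene induced by IL-4 in macrophages, and in healing skin macrophages with this programme appear as the early inflammatory phase ends.

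RNA sequencing counts of 18 libraries were used. Skin macrophages were cells that beads against the macrophage surface protein F4/80 held back from digested dorsal skin of wounded PPARg T166A (n = 6) and WT (n = 6) mice at day 6 after injury. Bone marrow-derived macrophages (BMDM) were grown from marrow of PPARg T166A (n = 3) and C57BL/6J WT (n = 3) mice for 7 days in 50 ng/ml M-CSF, the growth factor that drives macrophage differentiation. The labels name no IL-4 treatment of any group. Each genotype had BMDM of batch B1 (replicates 1 and 2) and of batch B2 (replicate 3), and the skin libraries carried no batch label. It is not clear from the labels whether replicates came from separate animals or cultures, so the p-values cover just the spread among these libraries, which may be technical. A transcript count cannot show a point mutation and so does not check the genotype labels. The extraction protocol speaks of adipocytes, whereas the cell type labels of all libraries name macrophages.

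Depth was 29357354 to 38774475 gene counts per skin library and 40072513 to 44152639 per BMDM library. Levels are in CPM, a gene's share of its library's gene counts scaled to 1e+06, and fold changes are on the log2 scale, T166A over WT, with a standard error (SE). The fold changes also use TMM library factors, which the CPM values and the comparisons of ranges do not. Small differences can therefore change sign between them, as for Tgm2, Clec7a and Pdcd1lg2 in skin. All 8 macrophage markers were measured in both cell sources. In skin, 5 of them (Adgre1, which encodes F4/80, Csf1r, Cd68, Lyz2 and Itgam) were lower in T166A libraries and none was higher, with a summed level of 10926 to 12270.3 CPM in T166A and 12200.1 to 13923 CPM in WT libraries. All 5 tested adipocyte markers were higher (78.3 to 125 CPM in T166A and 12.3 to 27.6 CPM in WT libraries, summed), as were 4 of 6 endothelial markers (1207 to 1696 CPM in T166A and 862 to 1218 CPM in WT libraries). Of the other marker lists in skin, 2 of 8 dendritic cell genes were higher and 3 lower, 1 of 6 monocyte genes was higher and 1 lower, and 1 of 6 mast cell genes was higher and 3 lower. Of the tested genes, 2 of 5 neutrophil genes and 1 of 3 B cell genes were lower, and no Langerhans cell, fibroblast or keratinocyte gene passed. Only 1 of the 6 T and NK cell genes, Cd4, was tested, and it did not pass. In BMDM no tested marker of any listed cell type passed the edgeR test, which just 0.0685% of all genes did, and no adipocyte or Langerhans cell gene was tested. The summed fibroblast level in BMDM was 7.45 to 422 CPM in T166A and 4.17 to 44.8 CPM in WT libraries. The summed level of the macrophage markers was 29648 to 40393 CPM in T166A and 34043 to 43309.5 CPM in WT libraries.

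The stretch of 250 bases before the transcription start is given for 4 of the genes, from RefSeq on GRCm38.p6, written 5′ to 3′ on the sense strand of the gene. Retnla and Chil3 are shown because their windows hold a STAT-type element (capitals), and Irf4 and Ear2 because they had the clearest genotype differences in skin; they hold none of the motifs searched.
Retnla (chr16:48842359-48842608, plus strand): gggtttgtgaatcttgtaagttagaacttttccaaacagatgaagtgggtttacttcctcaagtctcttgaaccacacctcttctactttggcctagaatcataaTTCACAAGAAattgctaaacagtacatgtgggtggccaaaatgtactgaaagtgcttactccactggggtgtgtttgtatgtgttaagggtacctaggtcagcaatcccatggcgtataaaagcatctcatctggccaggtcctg
Chil3 (chr3:106167565-106167814, minus strand): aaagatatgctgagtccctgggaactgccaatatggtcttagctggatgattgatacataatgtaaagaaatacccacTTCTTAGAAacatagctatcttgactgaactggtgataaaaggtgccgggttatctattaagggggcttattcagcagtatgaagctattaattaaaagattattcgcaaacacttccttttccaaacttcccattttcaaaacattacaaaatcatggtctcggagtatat
Irf4 (chr13:30748983-30749232, plus strand): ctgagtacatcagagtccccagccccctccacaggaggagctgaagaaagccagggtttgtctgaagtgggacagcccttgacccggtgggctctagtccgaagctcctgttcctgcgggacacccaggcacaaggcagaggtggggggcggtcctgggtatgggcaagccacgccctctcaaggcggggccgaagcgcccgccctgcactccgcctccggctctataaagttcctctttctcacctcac
Ear2 (chr14:44102404-44102653, plus strand): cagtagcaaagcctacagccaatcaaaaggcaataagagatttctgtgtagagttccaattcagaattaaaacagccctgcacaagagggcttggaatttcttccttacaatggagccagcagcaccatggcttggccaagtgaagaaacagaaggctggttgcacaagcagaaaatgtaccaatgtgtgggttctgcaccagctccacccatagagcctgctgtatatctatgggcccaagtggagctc

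A set of 4 motifs was searched on both strands in these windows, of which 9 of the 10 genes had at least 1. TTC followed after any 4 bases by GAA, the spacing that STAT6 is known to prefer, was found 145 bases before the start of Retnla, 82 bases before that of Pdcd1lg2, and 131 or 125 bases before the annotated starts of Clec7a, against 5.85% of all 32851 windows of this length. TTC and GAA with 3 bases between them, found in 7.02% of all windows, stood 172 bases before the start of Chil3. GGAA followed after any 2 bases by GAAA, a composite element at which IRF4 is known to pair with an ETS factor, was found in Clec7a and in 2.3% of all windows. AGGTCA repeated after any 1 base, the direct repeat bound by PPARg with RXR, was found in none of the 9 genes and in 0.0335% of all windows. A match describes letters in a window and is not a shown binding site.

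In skin macrophages, 4 of the 10 genes were lower in T166A than in WT libraries and none was higher (edgeR quasi-likelihood test, Benjamini-Hochberg adjusted over 15473 genes, threshold 0.05). Irf4 and Ear2 had the largest falls, with every T166A library below every WT library, and Stab1 and F13a1 fell by less. Among all genes tested, 25.9% passed, 12.7% higher and 13.2% lower. The median log2 fold change was -0.21 over the 10 genes and 0.01 over all genes tested. In bulk libraries, fewer cells of a type and less RNA per cell cannot be told apart. The other 6 genes did not pass, although Retnla, Chil3 and Il4ra had an unadjusted p under 0.05. Passing or not, 7 of the 10 genes had such a p, against 36.9% of all genes tested.

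**Figure D1:**
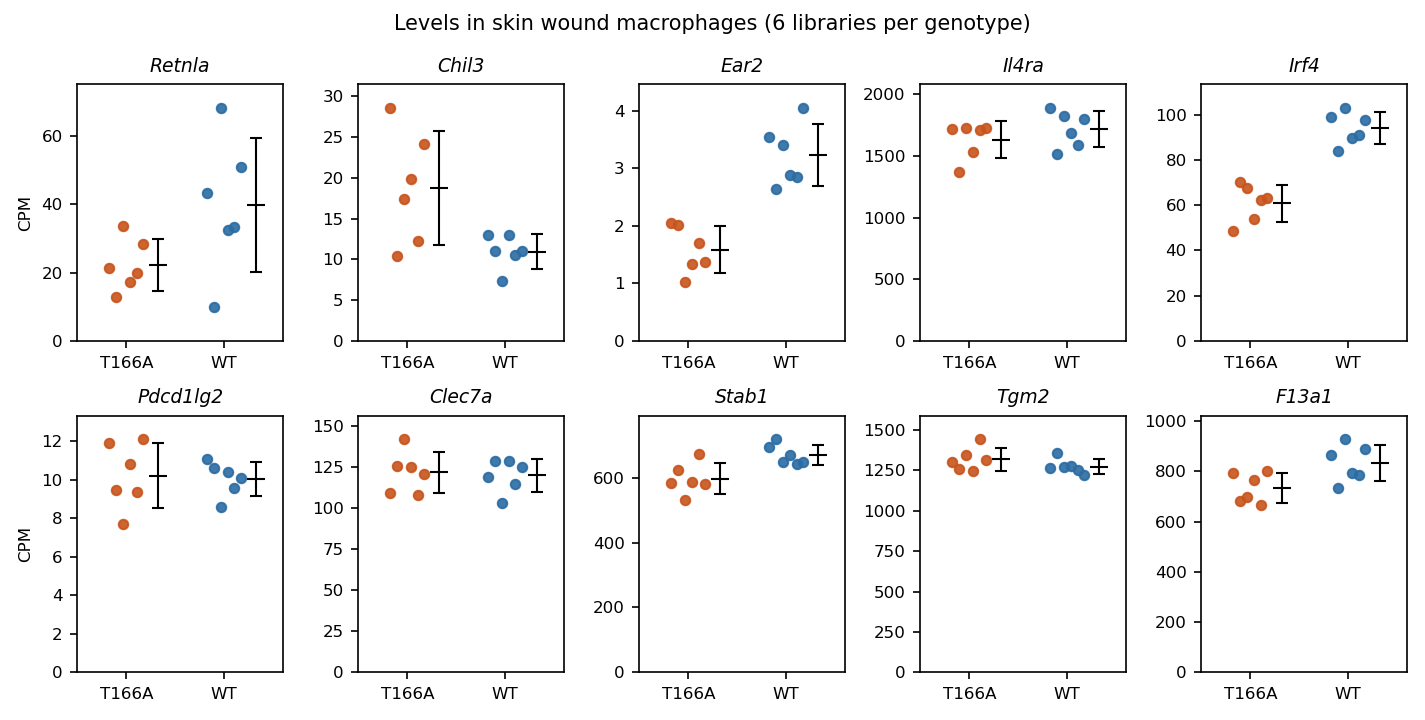
Level of each of the 10 genes in skin wound macrophages, in CPM (vertical axis, a linear scale from 0 in each panel), for the 6 T166A libraries (left) and the 6 WT libraries (right). Points are libraries and bars are the mean ± SD; the genotypes separate fully for Irf4 (48.4 to 70 CPM in T166A, 84.1 to 103 CPM in WT) and Ear2, and overlap for the other 8 genes.

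Among the transcription factors and receptors of the pathway, Irf4 (chromosome 13, 30749233 to 30766981) encodes a factor that acts downstream of IL-4 in alternative activation. It had 48.4, 62.7 and 70 CPM as the lowest, median and highest value in T166A skin libraries, against 84.1, 94.5 and 103 CPM in WT skin libraries. All 6 T166A libraries lay below the lowest WT library, as they did for 4.08% of all genes tested; the opposite separation, seen for 8.83% of all genes, was seen for none of the 10. Irf4 averaged 60.9 ± 8.25 CPM in T166A and 94.1 ± 6.9 CPM in WT libraries (SD, n = 6 each). On the log2 scale the change was -0.72 (SE 0.08, edgeR adjusted p = 3.36e-06), and Irf4 ranked 218 of 15473 by p.

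Il4ra (chromosome 7, 125552271 to 125579474), which encodes the IL-4 receptor alpha chain, had 1369, 1717 and 1729 CPM as the lowest, median and highest value in T166A libraries, against 1514, 1744 and 1891 CPM in WT libraries. The groups overlapped, and the log2 fold change of -0.16 did not pass (95% interval -0.31 to -0.01, edgeR adjusted p = 0.109). Without WT replicate 2, the lowest WT library, it passed (-0.20, edgeR adjusted p = 0.0302), but it passed with no other library left out (edgeR adjusted p up to 0.249). With the replicate number as a block and no library left out it passed too (-0.16, edgeR adjusted p = 0.0138). Clec7a (chromosome 6, 129461591 to 129472785), the gene of the beta-glucan receptor dectin-1, averaged 122 ± 12.4 CPM in T166A and 120.0 ± 9.84 CPM in WT libraries (SD, n = 6 each). Its log2 fold change was -0.06, with a 95% interval of -0.20 to 0.08 (edgeR adjusted p = 0.526).

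Stab1 (chromosome 14, 31139017 to 31168651) encodes stabilin-1, a scavenger receptor of tissue macrophages and sinusoidal endothelium. It had 530.2, 585 and 674 CPM as the lowest, median and highest value in T166A libraries, against 643, 659.9 and 718 CPM in WT libraries. All but 1 of the 6 T166A libraries lay below the lowest WT library and the other, replicate 5, lay within the WT range. The log2 fold change was -0.25 (SE 0.05, edgeR adjusted p = 0.00109). Pdcd1lg2 (chromosome 19, 29410919 to 29472927), which encodes PD-L2, a ligand of the T cell inhibitory receptor PD-1, averaged 10.2 ± 1.71 CPM in T166A and 10 ± 0.874 CPM in WT libraries (log2 fold change -0.06, 95% interval -0.29 to 0.16, edgeR adjusted p = 0.719).

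Among the secreted effectors, Ear2 (chromosome 14, 44102654 to 44103531) encodes a ribonuclease of the eosinophil-associated family that alternatively activated macrophages also make. It was scarce, with 34 to 75 counts in T166A and 84 to 140 counts in WT skin libraries. Its lowest, median and highest values were 1.02, 1.53 and 2.05 CPM in T166A libraries, against 2.64, 3.14 and 4.05 CPM in WT libraries, so that the groups did not overlap. The fall of 1.12 on the log2 scale (SE 0.19, edgeR adjusted p = 0.000133) was the largest of the 4 that passed. Of the 50-base stretches of its transcript, 41.5% occur in another gene as well, and 26% occur in Ear10, so part of its reads could belong to a copy. Ear10 averaged 0.00442 CPM in T166A and 0 CPM in WT libraries, and Ear1 averaged 0.0198 CPM in T166A and 0.021 CPM in WT libraries. Ear6, the only one of the Ear copies looked up (Ear1, Ear6, Ear10 and Ear14) with enough counts to be tested, averaged 0.247 ± 0.129 CPM in T166A and 0.483 ± 0.368 CPM in WT libraries, and its log2 fold change of -1.03 (SE 0.52) did not pass (edgeR adjusted p = 0.15). The eosinophil gene Epx averaged 0.0368 CPM in T166A and 0.0114 CPM in WT libraries, and the summed level of all 6 eosinophil markers was 10.5 to 18.6 CPM in T166A and 9.03 to 13.9 CPM in WT libraries, with 1 of the 4 tested, Prg2, higher in T166A and none lower.

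Retnla (chromosome 16, 48842609 to 48844461) encodes RELM-alpha, a secreted protein strongly induced by IL-4 through STAT6. Its 6 T166A libraries had 12.9, 20.5 and 33.8 CPM as the lowest, median and highest value, against 10, 38.4 and 68.3 CPM in the WT libraries. All T166A libraries lay below the WT median, but WT replicate 2 was the lowest library of either genotype. The log2 fold change was -0.93 (95% interval -1.83 to -0.03) and did not pass (edgeR adjusted p = 0.124). Without WT replicate 2 it was -1.13 and passed (edgeR adjusted p = 0.0167), but it passed with no other library left out (edgeR adjusted p up to 0.241). With the replicate number as a block and no library left out it was -0.82 and passed too (edgeR adjusted p = 0.0293). Replicate 2 was also the lowest T166A library, and the 6 replicate numbers ranked in the same order in both genotypes. The labels do not say what a shared number means.

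Chil3 (chromosome 3, 106147554 to 106167564) encodes Ym1, a secreted chitinase-like protein, and was the only one of the 10 genes with a positive log2 fold change in skin. It had 10.4, 18.6 and 28.6 CPM as the lowest, median and highest value in T166A libraries, against 7.32, 11 and 13 CPM in WT libraries. In 4 T166A libraries it lay above the highest WT library, and in replicates 2 and 5 within the WT range. The log2 fold change of 0.68 (95% interval 0.12 to 1.24) did not pass (edgeR adjusted p = 0.0723). With T166A replicate 2 left out it was 0.81 and passed (edgeR adjusted p = 0.0191). With T166A replicate 5 left out it was 0.78 and passed too (edgeR adjusted p = 0.039). These were the lowest T166A libraries, and Chil3 passed with no other library left out (edgeR adjusted p up to 0.136). It also passed by DESeq2 (0.68, adjusted p = 0.0335), which called 13.6% of all genes higher. Its transcript shares 29.4% of its 50-base stretches with other genes, 18.5% with Chil4, which averaged 0.0143 CPM in T166A and 0.0105 CPM in WT libraries.

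Both transglutaminase genes of the set, whose products cross-link proteins, were abundant. F13a1 (chromosome 13, 36867178 to 37050244), the A chain of coagulation factor XIII, had 666, 731 and 801 CPM as the lowest, median and highest value in T166A libraries, against 734, 828 and 927 CPM in WT libraries. The ranges overlapped, with 3 T166A libraries below the lowest WT library and all 6 below the WT median, and the log2 fold change was -0.27 (SE 0.07, edgeR adjusted p = 0.0039). Tgm2 (chromosome 2, 158116405 to 158146392), tissue transglutaminase, averaged 1317 ± 69.8 CPM in T166A and 1272 ± 44.9 CPM in WT libraries (SD, n = 6 each; log2 fold change -0.04, 95% interval -0.14 to 0.07, edgeR adjusted p = 0.645). F13a1, Il4ra, Stab1 and Tgm2 overlap exons of a gene on the opposite strand, and since the strand setting of the counting is not given, reads of the pairs could not be told apart.

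The macrophage gene Adgre1 averaged 707 ± 37.9 CPM in T166A and 856 ± 67.3 CPM in WT skin libraries, a log2 fold change of -0.36, larger in size than those of Stab1 (-0.25) and F13a1 (-0.27) and smaller than those of Irf4 and Ear2. In a scaling chosen after seeing the data, library size factors were set from 6 macrophage markers (Adgre1, Csf1r, Cd68, Mertk, Fcgr1 and Lyz2), which moved the median log2 fold change of all genes to 0.28. Irf4 and Ear2 were still lower on this scale (-0.44, edgeR adjusted p = 0.000237, and -0.83, edgeR adjusted p = 0.00142). F13a1 at 0.00 (edgeR adjusted p = 0.968) and Stab1 at 0.02 (edgeR adjusted p = 0.851) no longer passed, and both lay below the shifted median. Chil3 (0.96, edgeR adjusted p = 0.00351), Clec7a (0.21, edgeR adjusted p = 0.0272) and Tgm2 (0.23, edgeR adjusted p = 0.00456) were higher, Chil3 above the shifted median and the other two below it. Under this scaling 3 of the 10 genes were thus higher and 2 lower, against 7496 higher and 425 lower of all genes. The part of other cell types in the TMM-scaled values was not tested further.

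**Figure D2:**
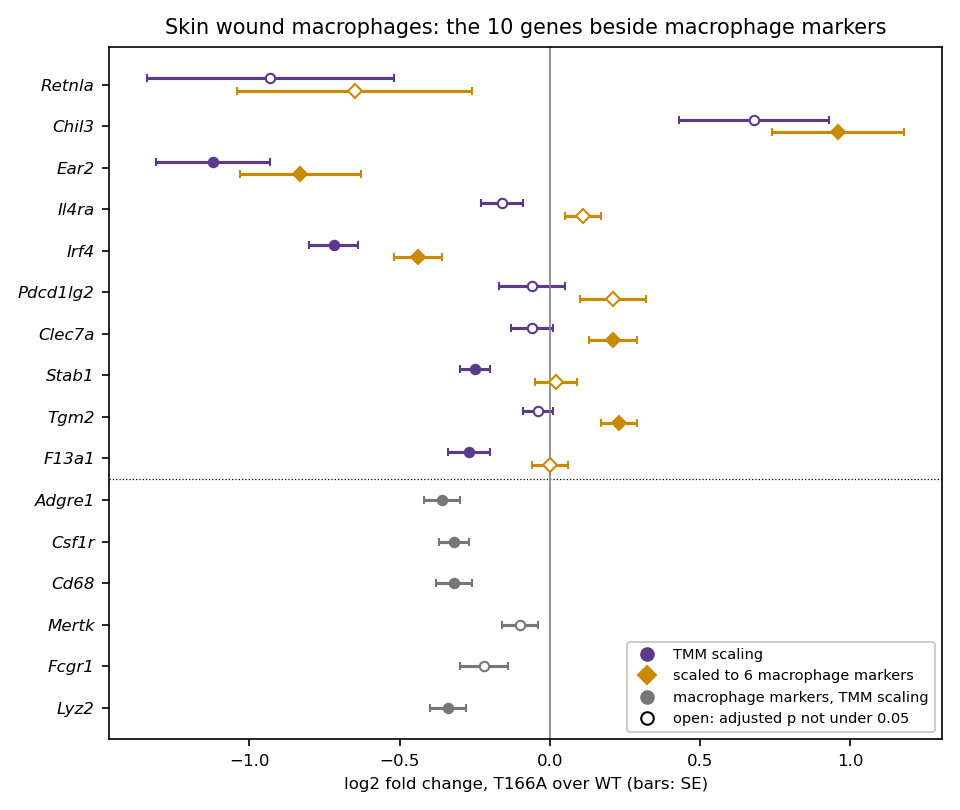
Log2 fold change of T166A over WT in skin macrophages (horizontal axis, bars are SE) for the 10 genes under TMM scaling (circles) and under scaling to 6 macrophage markers (diamonds), with those markers under TMM scaling below the dotted line. Filled symbols have an adjusted p under 0.05; Irf4 and Ear2 stay filled and left of 0 under both scalings, while F13a1 and Stab1 move to 0.00 and 0.02.

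Levels between genes were compared per kilobase of transcript. In skin, Tgm2 led with 366 ± 19.4 CPM per kb in T166A and 354 ± 12.5 CPM per kb in WT libraries, followed by Il4ra with 310.4 ± 28.5 CPM per kb in T166A and 327 ± 27.8 CPM per kb in WT libraries. Between these neighbours the gap was within the SD of Il4ra in WT libraries and larger than either SD in T166A libraries. F13a1 (211 ± 18.5 CPM per kb in WT libraries) and Stab1 (83.8 ± 3.79 CPM per kb in WT libraries) came next. Retnla, at 66.4 ± 32.8 CPM per kb in WT libraries, spread too widely there to be separated from Stab1 or Clec7a. In T166A libraries Retnla averaged 37 ± 12.7 CPM per kb, lower than Stab1 (74.6 ± 6.08 CPM per kb) and Clec7a (53.7 ± 5.47 CPM per kb). Irf4 stood at 12.8 ± 1.73 CPM per kb in T166A and 19.8 ± 1.45 CPM per kb in WT libraries. The scarcest were Chil3, Pdcd1lg2 and Ear2, with Ear2 at 2.2 ± 0.569 CPM per kb in T166A and 4.49 ± 0.744 CPM per kb in WT libraries.

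Within genotypes, the gene whose log2 CPM followed each of the 4 passing genes most closely over the 12 skin libraries was Abcb1b for Irf4 (Pearson's r = 0.97), Xxylt1 for Ear2 (0.9), Kmt2b for Stab1 (0.97) and Cd209a for F13a1 (0.92). Each was the best of about 9930 genes with at least 5 CPM, and all of these values share the same libraries, so they describe likeness only.

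In BMDM none of the 9 tested genes passed (edgeR, adjusted over 13139 genes, of which 0.0685% passed, 0.0609% higher and 0.00761% lower). The largest differences were in Chil3 and Ear2, which were lower in every T166A library than in any WT library. Both had an unadjusted p under 0.05, as had 12.8% of all genes tested, and non-overlapping lower groups were seen for 5.85% of all genes. DESeq2 called both lower, as it did 1.32% of the 11101 genes to which it gave an adjusted p, and limma-voom called Chil3 lower, as it did 0.221% of all genes. The median log2 fold change was 0.14 over the 9 genes and -0.02 over all genes tested.

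Retnla had 0 counts in all 6 BMDM libraries, which allows up to 0.0737 CPM in T166A and 0.0749 CPM in WT libraries (3 counts per library; counting error only). The skin level of this gene, at 22.2 ± 7.6 CPM in T166A and 39.8 ± 19.6 CPM in WT libraries, comes from a separately counted table. Chil3 had 1.81, 0.917 and 2.09 CPM in T166A BMDM, against 4.11, 3.39 and 8.48 CPM in WT BMDM. The log2 fold change was -1.68 (SE 0.36, edgeR adjusted p = 0.174; DESeq2 adjusted p = 0.00302), and it was -1.46 within batch B1 and -2.10 within batch B2, which held 1 library per genotype and gave no test.

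Ear2 had 1.11, 1.26 and 1.57 CPM in T166A BMDM, against 3.9, 4.45 and 3.27 CPM in WT BMDM. The groups were well apart, with a change of -1.59 on the log2 scale (SE 0.35, edgeR adjusted p = 0.175; DESeq2 adjusted p = 0.00302), -1.81 within B1 and -1.13 within B2. These levels rest on 49 to 64 counts in T166A and 131 to 190 counts in WT libraries. The sign of the Ear2 difference was thus the same as in skin, where it passed.

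Pdcd1lg2 was the third gene with groups that did not overlap, in the other direction. It had 0.453, 0.94 and 0.786 CPM in T166A BMDM, against 0.333, 0.328 and 0.299 CPM in WT BMDM, that is 20, 41 and 32 counts against 14, 14 and 12. The log2 fold change of 1.14 had a wide 95% interval of -0.59 to 2.88 (edgeR adjusted p = 0.555), and non-overlapping higher groups were seen for 7.99% of all genes. Il4ra had 261, 211 and 126 CPM in T166A BMDM, against 176, 113 and 135 CPM in WT BMDM, with a log2 fold change of 0.71 within B1 and -0.19 within B2. Such opposite signs between the batches were also seen for Stab1 (0.50 within B1 and -0.61 within B2), F13a1 (0.32 and -0.65), Tgm2 (0.38 and -0.02) and Clec7a (0.29 and -0.05).

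Irf4, which was lower in skin, had 4.1, 6.51 and 2.46 CPM in T166A BMDM, against 6.75, 3.89 and 4.44 CPM in WT BMDM. The groups overlapped, and the log2 fold change was -0.31 with a 95% interval of -1.09 to 0.48 (edgeR adjusted p = 0.741), 0.01 within B1 and -0.94 within B2. Stab1 was the most abundant of the set per kilobase in BMDM, at 126 ± 66.7 CPM per kb in T166A and 103 ± 36 CPM per kb in WT libraries. It was followed by Clec7a at 106 ± 29.8 CPM per kb in T166A and 90.7 ± 22.6 CPM per kb in WT libraries, a gap smaller than either SD in both genotypes. Fold changes in BMDM moved with transcript length, with a median of -0.27 for genes up to 1 kb and 0.34 for genes over 6 kb. With that trend removed from each library, the log2 fold changes were -1.35 for Ear2 (transcript of 0.719 kb), -1.54 for Chil3 and -0.22 for Stab1 (transcript of 8 kb), which changed sign, and none passed.

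**Figure D3:**
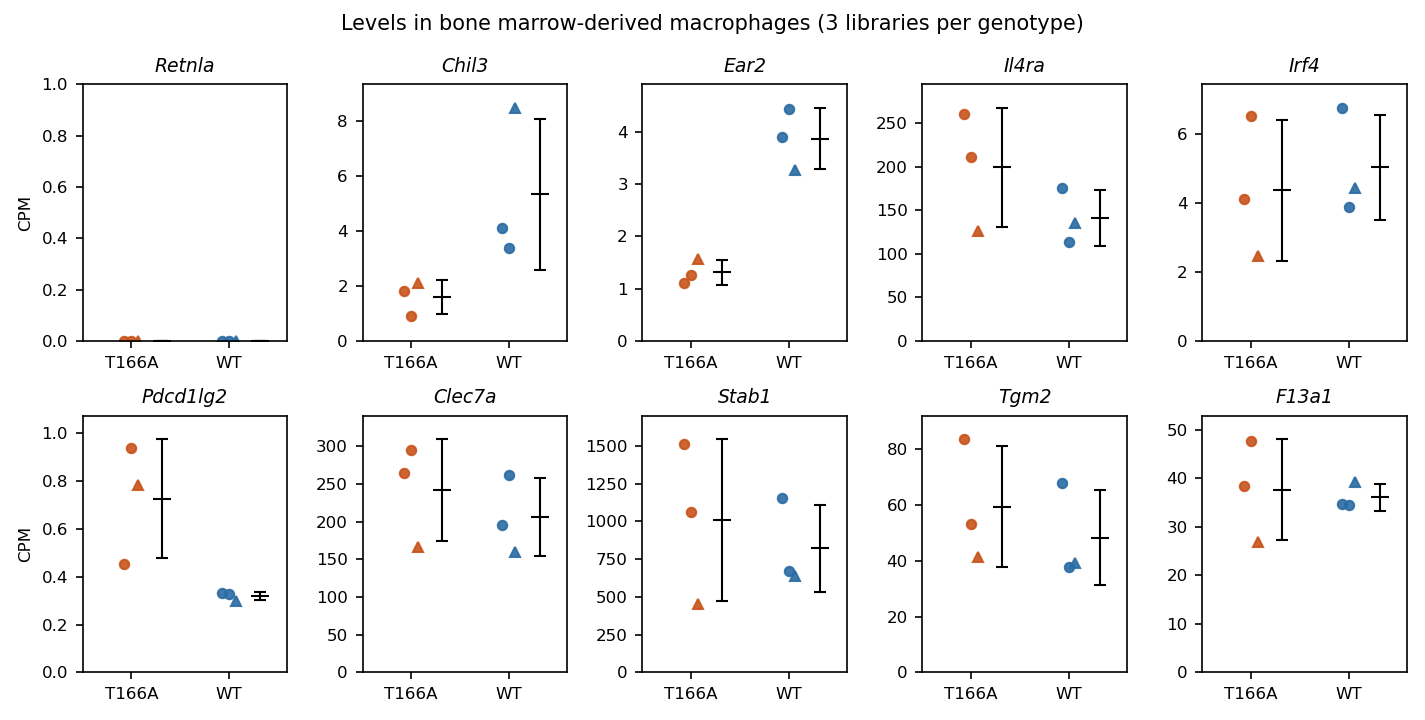
Level of each of the 10 genes in BMDM, in CPM (vertical axis, a linear scale from 0 in each panel), for the 3 T166A libraries (left) and the 3 WT libraries (right). Circles are libraries of batch B1, triangles are batch B2 and bars are the mean ± SD; the genotypes separate for Chil3, Ear2 and Pdcd1lg2, and Retnla is at 0 in all libraries.

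The genotype effects of both cell sources were compared in an edgeR fit over all 18 libraries, in which 14.3% of 16586 genes passed, 6.16% with a higher effect in skin and 8.13% with a lower one. Chil3 and Pdcd1lg2 were the genes of the set that passed. The Chil3 effect was 2.41 higher on the log2 scale in skin than in BMDM (SE 0.43, edgeR adjusted p = 0.00148), with 18.8 ± 6.97 CPM in T166A and 11 ± 2.09 CPM in WT skin libraries (n = 6 each) and 1.61 ± 0.612 CPM in T166A and 5.33 ± 2.76 CPM in WT BMDM (n = 3 each). The difference was 2.36 between the separate fits (adjusted p = 0.0186) and 2.55 by limma-voom, where it did not pass (adjusted p = 0.178).

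The Pdcd1lg2 effect was lower in skin by -1.16 (SE 0.32, against 0.77 for the BMDM effect fitted alone, edgeR adjusted p = 0.0212). It did not pass between the separate fits (-1.21, adjusted p = 0.425), without BMDM T166A replicate 2 (-0.85, edgeR adjusted p = 0.11), without BMDM T166A replicate 3 (-1.06, edgeR adjusted p = 0.0586) or without BMDM WT replicate 3 (-1.06, edgeR adjusted p = 0.0587). Leaving out either replicate 3 leaves the other as the only B2 library, which the batch term fits exactly. Both fits thus use the BMDM genotype effect within B1 and are not separate checks. Il4ra differed by -0.54 (edgeR adjusted p = 0.0803). With the replicate number as a block within each cell source it differed by -0.55 and passed (edgeR adjusted p = 0.0469), as did Chil3, Pdcd1lg2 and 13.8% of all genes. Without BMDM T166A replicate 3 Il4ra differed by -0.81 (edgeR adjusted p = 0.00615). Stab1 and F13a1 then differed by -0.69 and -0.52 (edgeR adjusted p = 0.0192 and 0.0165). All 3 passed by the same amounts without BMDM WT replicate 3, which is the same comparison within B1. For Irf4 (-0.39, edgeR adjusted p = 0.315) and Ear2 (0.51, edgeR adjusted p = 0.347) no difference between the cell sources passed.

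**Figure D4:**
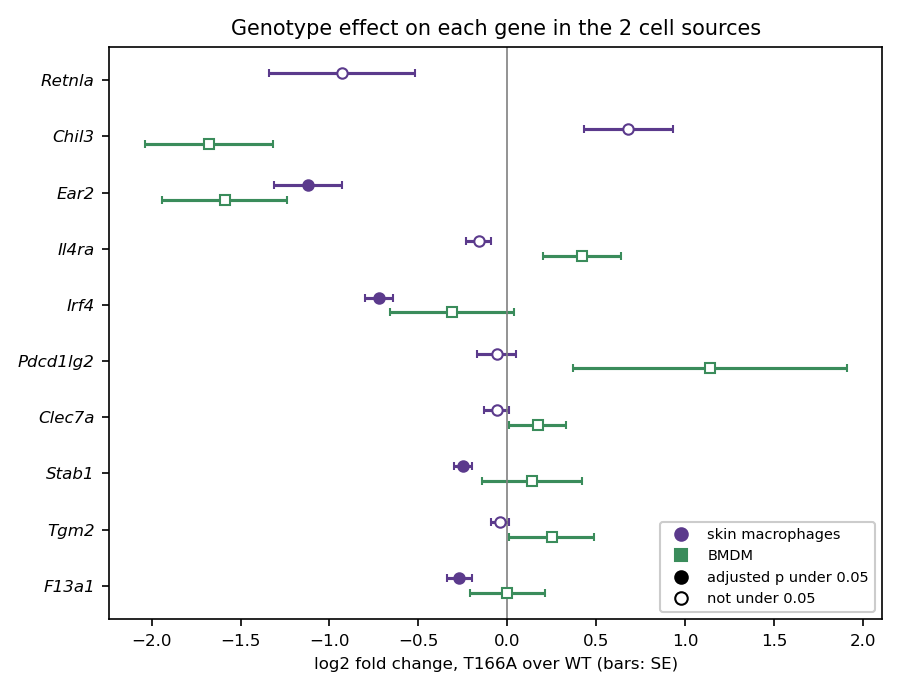
Log2 fold change of T166A over WT (horizontal axis, bars are SE) of the 10 genes in skin macrophages (circles, n = 6 per genotype) and BMDM (squares, n = 3 per genotype). Filled symbols have an adjusted p under 0.05; the 4 filled symbols are Ear2, Irf4, Stab1 and F13a1 in skin, Chil3 lies at 0.68 in skin and -1.68 in BMDM, and Retnla has no BMDM value.

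The other genes of the pathway were counted in a list of 16 signalling genes and a list of 45 genes known to respond to IL-4 or STAT6. In skin, 2 of the 14 tested signalling genes were higher in T166A libraries and 4 were lower, and the median log2 fold change was -0.09. Stat6 itself was modestly lower, at 156 ± 4.21 CPM in T166A and 171 ± 5.3 CPM in WT libraries (SD, n = 6 each; log2 fold change -0.23, edgeR adjusted p = 0.000866). Irs2, an adaptor of the insulin and IL-4 receptors, averaged 118 ± 8.93 CPM in T166A and 172 ± 6.28 CPM in WT libraries (-0.64, edgeR adjusted p = 1.12e-08), and Socs3 (-0.29) and the kinase gene Jak3 (-0.20) were also lower. Il13ra1, a receptor chain for IL-13, and Socs2, a feedback inhibitor of cytokine signalling, were higher (0.27 and 0.31). The cytokine genes were near 0 and were not tested, Il4 at 0.123 CPM in T166A and 0.116 CPM in WT libraries and Il13 at 0.0943 CPM in T166A and 0.163 CPM in WT libraries.

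Of the 40 tested responsive genes, 4 were higher and 13 lower in T166A skin libraries, and the median log2 fold change was -0.20. The falls included the transcription factor genes Klf4 (101 ± 3.12 CPM in T166A and 150.2 ± 17.7 CPM in WT libraries; -0.66, edgeR adjusted p = 4e-08) and Egr2 (32.1 ± 3.24 CPM in T166A and 45.1 ± 3.77 CPM in WT libraries; -0.58, edgeR adjusted p = 3.01e-06), and Kdm6b (-0.51), which encodes a histone demethylase. Mrc1, the mannose receptor gene, averaged 1129.9 ± 60.1 CPM in T166A and 1339 ± 74.8 CPM in WT libraries (-0.33, edgeR adjusted p = 0.000111), and the scavenger receptor gene Cd163 fell by the same amount. The chemokine gene Ccl7 (-0.56), the growth factor gene Hbegf (-0.49) and Il1rn (-0.29), which encodes the IL-1 receptor antagonist, were lower as well. Over both lists 42.6% of the 54 tested genes passed, against 25.9% of all genes. The lists were chosen with earlier results of these data known, so these shares are a description and not a test.

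Of the 4 responsive genes that rose, Slc7a2, which encodes a cationic amino acid transporter, averaged 273 ± 19.2 CPM in T166A and 155 ± 11 CPM in WT libraries (0.73, edgeR adjusted p = 7.25e-09). Ch25h, which encodes cholesterol 25-hydroxylase, averaged 39.4 ± 3.43 CPM in T166A and 21.4 ± 3.27 CPM in WT libraries (0.79, edgeR adjusted p = 5.28e-06). Itgb3, an integrin gene, rose by 0.57, and Vwf, the von Willebrand factor gene, by 0.89, beside the higher endothelial markers, whose part in these values was not tested. Arg1, which encodes arginase 1, averaged 217 ± 43.2 CPM in T166A and 164 ± 25.8 CPM in WT libraries, and its log2 fold change of 0.33 did not pass (edgeR adjusted p = 0.135). Pparg did not pass either, at 25.2 ± 3.28 CPM in T166A and 27.2 ± 1.24 CPM in WT libraries (-0.19, edgeR adjusted p = 0.0778). With scaling to the macrophage markers 19 of the 54 tested genes of both lists were higher and 7 lower. Of all 15473 genes, 7496 were higher and 425 lower on that scale, where the median log2 fold change was 0.28. The genes of the lists still lower were Irs2 (-0.37), Klf4 (-0.40), Egr2 (-0.31), Kdm6b (-0.24), Ccl7 (-0.29), Hbegf (-0.22) and Clec10a (-0.23).

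**Figure D5:**
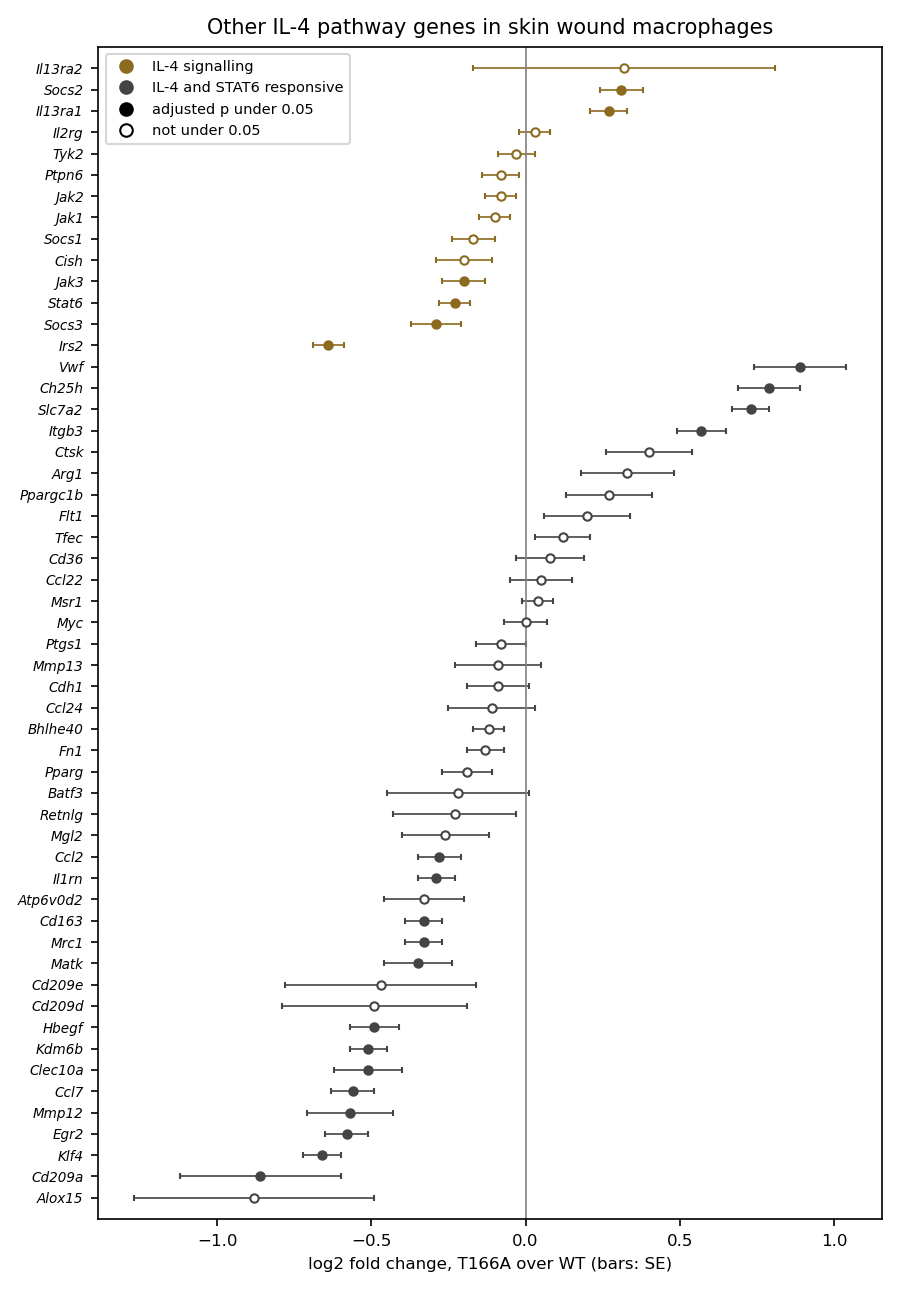
Log2 fold change of T166A over WT in skin macrophages (horizontal axis, bars are SE) for the 54 tested genes of the lists of IL-4 signalling genes (top) and of IL-4 and STAT6 responsive genes (below), each list sorted by fold change. Filled symbols have an adjusted p under 0.05; 6 are filled on the right of 0 and 17 on the left.

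In BMDM none of the 51 tested genes of both lists passed by edgeR, 14 had an unadjusted p under 0.05, against 12.8% of all genes, and DESeq2 called 6, against 3.6% of all genes to which it gave an adjusted p. Stat6 averaged 235 ± 57.3 CPM in T166A and 199 ± 42.5 CPM in WT BMDM (0.20, edgeR adjusted p = 0.645), Mrc1 225 ± 37.5 CPM in T166A and 183 ± 4.43 CPM in WT BMDM (0.26, edgeR adjusted p = 0.501), and Pparg 58.3 ± 2.33 CPM in T166A and 57.8 ± 4.82 CPM in WT BMDM (-0.02, edgeR adjusted p = 0.968). Arg1 had a highest value of 0.317 CPM in T166A BMDM, against 0.421, 1.72 and 42.2 CPM as the lowest, median and highest value in WT BMDM. It did not pass (edgeR adjusted p = 0.409), but with the replicate number as a block it was the 1 gene of the lists that did (edgeR adjusted p = 0.00567), and a single WT library set most of the difference in means. Ccl2, named after its values were seen, was nearest to the threshold, at 11.5 ± 1.67 CPM in T166A and 27.3 ± 3.07 CPM in WT BMDM (-1.28, edgeR adjusted p = 0.0556). It passed with RLE factors, both other filters, DESeq2 (adjusted p = 3.53e-08) and limma-voom (adjusted p = 0.00707). It did not pass with summed transcripts, the length trend removed, the replicate block, marker scaling or no batch term, or with any 1 library left out. In skin Ccl2 was lower as well (-0.28, edgeR adjusted p = 0.00269).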

How the data were processed

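The authors deposited raw read counts for each RefSeq transcript, 1 table for skin and 1 for BMDM. Per the submitters' processing notes, FastQC 0.12.1, cutadapt 4.4, HISAT2 2.2.1 and featureCounts were used with the mm10 build. The sources used here do not give the strand setting or how shared reads were treated. Reads in exons shared by isoforms were counted once per isoform, so the transcript with the largest summed CPM stood for its gene (summing over transcripts raised the total 2.04-fold). Of 45843 skin and 45895 BMDM transcripts, 117 in each table matched no gene and were left out, with 0.187% and 0.514% of the counts.

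Tests were run in R 4.3.3 with edgeR 4.0.16 on all genes (TMM, filterByExpr at 10 counts and a total of 15, robust quasi-likelihood F test), on genotype in skin and on genotype and batch in BMDM, with Benjamini-Hochberg adjustment and a threshold of 0.05. All 10 genes passed the count filter in skin and 9 in BMDM. The biological coefficient of variation was 0.133 in skin and 0.279 in BMDM, with 10 and 3 residual degrees of freedom. SE is the log2 fold change over the root of F, and the 95% intervals use the moderated degrees of freedom. Likeness was computed on log2 CPM with a prior count of 2. The procedure was tested on simulated data. Alternatives were RLE factors, 2 other filters, DESeq2 1.42.0, limma-voom (limma 3.58.1), summed transcripts, the transcript length trend of each library removed, a replicate block, batch settings, each library left out and, added after seeing the data, scaling to 6 macrophage markers. Same-numbered BMDM libraries of both genotypes deviated together (correlations of 0.2, 0.115 and 0.185 after removing group means), a hint of pairs from the data. Batch was not removed, and replicate 3 was the only B2 library of each genotype, so its number and batch cannot be told apart. The labels give only the batch, and the main BMDM fit held no pairs.

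The 10 genes, the pathway and marker lists and the tests were chosen with earlier results of these data known. Of the other pathway genes, up to 8 per direction with the smallest adjusted p were named, with Stat6, Arg1, Mrc1 and Pparg whatever they showed. Il4, Il13, Socs3, Jak3, Clec10a and Ccl2 were named outside this rule.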

Additional observations from a re-analysis of the deposited data

Results flagged for a closer look

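The genotype effect on Chil3 differed between skin macrophages and BMDM in the test of the difference itself, by 2.41 on the log2 scale (edgeR adjusted p = 0.00148). The effect on Pdcd1lg2 differed by -1.16 (edgeR adjusted p = 0.0212). Both values come from a fit with 1 spread per gene for both cell sources. Neither gene passed by limma-voom, and Pdcd1lg2 did not pass between the separate edgeR fits (adjusted p = 0.425). In skin, Chil3 was above the WT median in 5 of 6 T166A libraries and Pdcd1lg2 in 3 of 6, and in BMDM Chil3 was below it in 3 of 3 T166A libraries and Pdcd1lg2 above it in 3 of 3. No library stood apart from its group for any of the 10 genes in skin by Dixon's test.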

How the results depend on the processing

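The 4 falls in skin (Irf4, Ear2, Stab1 and F13a1) passed under every alternative run but scaling to the 6 macrophage markers, under which Stab1 (0.02) and F13a1 (0.00) did not. Leaving out each skin library in turn gave 4 to 6 lower and 0 to 1 higher genes, with Irf4 between -0.75 and -0.66 and Ear2 between -1.21 and -1.02. The count of higher genes in skin was 1 (Chil3) by DESeq2, with summed transcripts, and with the replicate block alone or with the length trend removed, and 3 under marker scaling, where 2 were lower. Marker scaling also turned the sign of Il4ra (0.11), Pdcd1lg2 (0.21), Clec7a (0.21) and Tgm2 (0.23) in skin. Same-numbered skin libraries correlated weakly over all genes (-0.0454 to 0.0901), and none of the 6 numbers correlated best with its own. Such correlations do not settle whether the numbers mark pairs for single genes. The replicate block in skin gave 6 lower genes, with Retnla (-0.82, edgeR adjusted p = 0.0293) and Il4ra (-0.16, edgeR adjusted p = 0.0138) added. Chil3 stood at 0.63 (edgeR adjusted p = 0.039). The SE of Retnla was 0.41 in the main fit and 0.20 with the block. Over all 15473 genes the block called 2248 higher and 2301 lower. In BMDM the block changed no call of the 10 genes.

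In BMDM, 1 of the 10 genes was lower with no count filter, 2 by DESeq2 and 1 by limma-voom, and 0 without any 1 library. The pathway lists had 1 call in BMDM with RLE factors, 4 with no filter, 1 with the 1 CPM filter, 6 by DESeq2, 1 by limma-voom and 1 with the replicate block, alone or with the length trend removed. Over all genes, RLE factors called 9 higher and 2 lower of 13139, and no filter called 84 higher and 21 lower of 18036. The 1 CPM filter called 14 higher and 2 lower of 11191, and limma-voom 148 higher and 29 lower of 13139. DESeq2 called 253 higher and 147 lower of 11101. With the replicate block 8 were higher and 2 lower, or 13 and 3 with the length trend removed. BMDM fold changes near 0 changed sign: Irf4 to 0.01 in batch B1 alone (-0.60 to 0.01 without 1 library), Stab1 to -0.22 with the length trend removed and -0.21 with the block as well (-0.17 to 0.51 without 1 library), and F13a1 to -0.01 with no filter, -0.09 with the length trend removed, alone or with the block, and -0.12 under marker scaling (-0.17 to 0.32 without 1 library). That scaling moved the median of all genes in BMDM to -0.146. The 2 differences between cell sources became 0 by limma-voom, 1 between the separate fits, 3 with the replicate block within each cell source (Il4ra added) and 1 to 4 without 1 library, and that of Stab1 turned to 0.05 with the length trend removed. The cause was not tested. Depth limits Ear2 and Pdcd1lg2, which rest on few counts per library (34 to 75 for Ear2 in T166A and 84 to 140 in WT skin libraries).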
